A study of Homo sapiens with 6 samples.

Results

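Mucins are long glycoproteins of epithelial surfaces whose serine- and threonine-rich repeats carry dense O-linked sugar chains. The 10 genes described here were chosen by name as the mucin family around MUC13, with this DKK1 comparison already known: MUC1, MUC4, MUC12, MUC13, MUC15, MUC17 and MUC20, which encode membrane-bound mucins, and MUC2, MUC5AC and MUC5B, which encode secreted ones. Every array probe set carrying one of these symbols alone was taken. That gave 11 probe sets for 9 genes, of 32321 probe sets in all, 19158 of which carry a single symbol. MUC5AC was not analysed here because no probe set had it as its only symbol. Of the 11, 9 read the 7 membrane mucins, MUC12 with 3, and 2 read the secreted mucins MUC2 and MUC5B.

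The 6 arrays compared DLD-1/DKK1 with DLD-1/Mock cells, 3 dishes of each. DLD-1 is an established line from a human colorectal adenocarcinoma. It carries mutated APC, which keeps Wnt/β-catenin signalling switched on inside the cell. DLD-1/DKK1 cells carried a Tet-On lentivirus encoding V5-tagged human DKK1, a secreted Wnt inhibitor, followed by IRES-eGFP. The study describes the Mock lentivirus as encoding no ectopic gene. It also built a vector with IRES-eGFP and no DKK1, but whether that was the Mock virus is not given. All 6 dishes received doxycycline for 1 day before RNA was taken (10 mg/ml in the sample labels, µg/ml in the study's methods), so the drug was common to both groups. Whether clones were picked from the transduced cells is not given. The dishes are called independent by the study, but whether they came from more than 1 transduction is not given, and the spread between arrays may therefore be only that between dishes. Expression is given throughout as the log2 value of a Human Gene 1.0 ST probe set, and a difference is the DKK1 mean minus the Mock mean.

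The DKK1 probe set read 12.30, 12.38 and 12.36 in DLD-1/DKK1 and 5.15, 5.74 and 5.01 in DLD-1/Mock, a measured difference of 7.05 (SE 0.18, adjusted p = 0.00015 by limma over all probe sets). All Mock values lay below 6.05, the 95th percentile of the olfactory receptor probe sets used below as a dim reference, so the Mock level is only bounded and DKK1 was at least 78.6-fold higher, counted from that percentile. An exact two-sided permutation test over the 6 arrays gave p = 0.1, the smallest value that 3 against 3 allows. Both groups held the markers of colorectal epithelium, 11 of 12 of which lay above the same percentile. The exception was KRT20. The mean of the 12 markers lay between 10.19 and 10.24 in DLD-1/DKK1 and between 10.16 and 10.21 in DLD-1/Mock. Single markers went both ways: groups were apart for 3 higher in DLD-1/DKK1 (CDH17, VIL1, LGALS4) and 3 lower (KRT8, KRT18, CDX1). Of all 18404 named genes, 1783 were apart and higher and 1804 apart and lower. CDH17 had the widest difference of the 12, 0.18 (SE 0.040, limma adjusted p = 0.325). Of the other cell types' markers measured, 1 of 3 for leukocytes, 2 of 4 for fibroblasts and 1 of 4 for endothelium passed that level. The leukocyte marker above it was CD14, at 6.09 ± 0.058 in DLD-1/DKK1 and 6.36 ± 0.14 in DLD-1/Mock (SD, n = 3 each), with a difference of -0.27 (SE 0.078, limma adjusted p = 0.462) and groups that did not overlap. The other 2 were dim, with differences of 0.0005 for PTPRC and -0.05 for CD3E. Whether CD14 has a part in the mucin values was not tested. The second Mock array stood slightly apart, with correlations of 0.9953 to 0.9969 with the other arrays, and mucin differences that moved by over 1.5 times without it are given without it below.

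Membrane mucins are anchored in the apical plasma membrane, where the extracellular part forms a glycan barrier and the cytoplasmic tail can bind signalling proteins. Secreted gel-forming mucins join into polymers that make up the mucus layer, with MUC2 as the main mucin of the normal colon. MUC13 and MUC12 are abundant membrane mucins of the large bowel, MUC17 is found mainly in the small bowel, and MUC5AC and MUC5B are typical of stomach and airways. Colorectal carcinomas often lose MUC2 and gain MUC1 or MUC13. Several of the genes stand side by side in the genome: MUC20 next to MUC4 on chromosome 3, MUC3A, MUC12 and MUC17 in a row on chromosome 7, and MUC2, MUC5AC and MUC5B in a row on chromosome 11.

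Promoter sequences from RefSeq (GRCh38.p14) were at hand for 6 of the 10 genes: MUC1, MUC2, MUC4, MUC12, MUC13 and MUC17. The 250 bases before the annotated start were searched on both strands for short motifs. TCF/LEF factors, through which β-catenin acts, were searched as CTTTGNT. The intestinal factor family GATA was searched as NGATAA and the CDX family as TTTATG. The HNF1 half-site was searched as GTTAAT and the HNF4 motif as CAAAGTC, whose first letters, read on the other strand, begin the TCF/LEF motif. A general promoter element, the TATA box, was searched as TATAAA, and the GC box as GGGCGG. In the 6 genes, matches overlapped only among the GC boxes of MUC1. The 3 promoters shown are those of MUC13, the member with the widest difference between groups, MUC17, the only one of the 6 with TCF/LEF letters, and MUC2, the main secreted mucin of colon. Capitals mark the matches, which are descriptions of letters and not of binding.
MUC13 (chr3:124934752-124935001, minus strand): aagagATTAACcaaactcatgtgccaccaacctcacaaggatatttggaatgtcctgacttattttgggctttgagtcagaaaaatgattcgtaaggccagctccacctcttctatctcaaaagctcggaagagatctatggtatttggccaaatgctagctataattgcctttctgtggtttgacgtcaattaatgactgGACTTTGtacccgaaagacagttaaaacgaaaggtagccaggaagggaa
MUC17 (chr7:101019831-101020080, plus strand): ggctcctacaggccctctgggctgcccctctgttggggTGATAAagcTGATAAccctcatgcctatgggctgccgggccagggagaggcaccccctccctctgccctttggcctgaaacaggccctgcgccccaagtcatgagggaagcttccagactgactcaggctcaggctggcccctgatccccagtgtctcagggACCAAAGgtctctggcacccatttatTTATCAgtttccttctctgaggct
MUC2 (chr11:1074624-1074873, plus strand): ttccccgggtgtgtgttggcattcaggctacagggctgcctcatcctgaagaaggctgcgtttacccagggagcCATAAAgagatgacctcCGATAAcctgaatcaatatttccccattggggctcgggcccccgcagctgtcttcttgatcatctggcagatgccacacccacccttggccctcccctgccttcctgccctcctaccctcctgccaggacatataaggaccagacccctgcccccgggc

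In the MUC13 promoter the HNF1 half-site began 245 and the HNF4 letters 49 bases before the start. HNF1 half-site letters stood in 6.23% and HNF4 letters in 2.91% of 35116 human promoters of the same length. MUC17 held 3 GATA matches (20.4% of promoters hold at least 1) and the TCF/LEF letters (13.2%). MUC2 held 1 GATA and 1 CDX match (9.64% of promoters). Of the other members, MUC1 and MUC12 had TATA box letters (10.7%), and MUC1 and MUC4 had GC box letters (42.6%). The MUC13 window had 41.6% G and C bases, against 57.6 to 66% in the other 5 genes.

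MUC13 (probe set 8090180) encodes a transmembrane mucin with EGF-like domains that is abundant on intestinal epithelium and often higher in colorectal cancer. It read 9.82, 9.86 and 9.80 in DLD-1/DKK1 and 9.44, 9.27 and 9.43 in DLD-1/Mock. The groups did not overlap, and the lowest DKK1 array lay above the highest Mock array. The means were 9.83 ± 0.031 and 9.38 ± 0.099 (SD, n = 3 each), a difference of 0.44 (SE 0.059) or 1.36-fold. The Mock spread came mostly from the low second Mock array, without which the difference was 0.39.

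MUC20 (probe set 8084895) encodes a membrane mucin that binds the MET receptor. It read 9.28, 9.34 and 9.29 in DLD-1/DKK1 and 9.55, 9.55 and 9.58 in DLD-1/Mock. All DKK1 arrays were below all Mock arrays, and both groups were narrow. The means were 9.30 ± 0.031 and 9.56 ± 0.016 (SD, n = 3 each), a difference of -0.26 (SE 0.039), or 83.7% of the Mock level. MUC20 has pseudogene copies of near-identical sequence, so its reading is uncertain as to which copy was transcribed. MET, named here after its values were seen, read 11.65 on average in DLD-1/DKK1 and 11.52 in DLD-1/Mock (difference 0.14, limma adjusted p = 0.483).

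**Figure D1:**
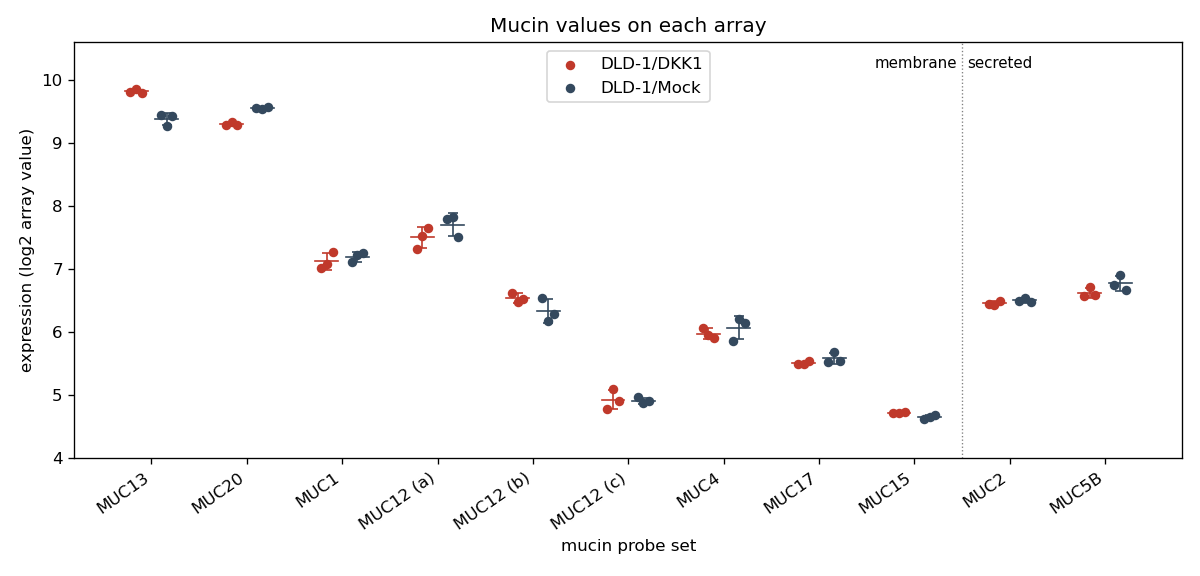
Log2 expression of each mucin probe set on every array, with DLD-1/DKK1 arrays in red left of DLD-1/Mock arrays in dark grey, horizontal lines at the group means and bars of 1 SD (n = 3 each). The groups are apart for MUC13, MUC20 and MUC15 and overlap for the other 8 probe sets, and MUC12 (a), (b) and (c) are its 3 probe sets.

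The other membrane mucins differed by less. MUC1 (probe set 7920642), a mucin of most glandular epithelia whose cytoplasmic tail binds β-catenin, read 7.02, 7.08 and 7.27 in DLD-1/DKK1 and 7.11, 7.23 and 7.25 in DLD-1/Mock. These ranges overlapped almost wholly (difference -0.07, SE 0.077), and leaving out single arrays gave -0.15 (without the third DKK1 array) to -0.02 (without the first DKK1 array). MUC4 (probe set 8092978), a large mucin that binds ERBB2, read 6.07, 5.96 and 5.91 in DLD-1/DKK1 and 5.87, 6.21 and 6.14 in DLD-1/Mock. The first Mock array was the lowest of the 6 and the second the highest, and the difference was -0.09 (SE 0.097). It was -0.20 without the first Mock array, -0.03 without the second and -0.06 without the third or without the third DKK1 array. The 95% interval of -0.33 to 0.14 leaves the direction unsettled, and MUC4 was not tested against its neighbour MUC20.

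MUC12, a membrane mucin of the colon, was read by 3 probe sets, and these disagreed. MUC12 (a), probe set 8135031, read 7.33, 7.53 and 7.66 in DLD-1/DKK1 and 7.79, 7.83 and 7.50 in DLD-1/Mock (difference -0.20, SE 0.12, or -0.11 without the first DKK1 array). MUC12 (b), probe set 8135033, read 6.63, 6.47 and 6.53 in DLD-1/DKK1 and 6.54, 6.18 and 6.28 in DLD-1/Mock (difference 0.21, SE 0.098, or 0.13 without the second Mock array). The first leaned lower and the second higher in DLD-1/DKK1, and in both the groups overlapped. MUC12 (c), probe set 8135037, read 4.79, 5.10 and 4.91 in DLD-1/DKK1 and 4.97, 4.87 and 4.90 in DLD-1/Mock (difference 0.02, SE 0.082). No direction can be given for MUC12. Within-group SD pooled over the groups was 0.17 for MUC12 (a), the widest of the 11 mucin probe sets, against a median of 0.074 over all probe sets.

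MUC17 (probe set 8135048), next to MUC12 on chromosome 7, read 5.50, 5.49 and 5.54 in DLD-1/DKK1 and 5.52, 5.69 and 5.55 in DLD-1/Mock. The second Mock array alone stood above the rest, and the difference was -0.08 (SE 0.055), or -0.03 without that array. MUC15 (probe set 7947156), a small membrane mucin first described in bovine milk, read 4.72, 4.71 and 4.73 in DLD-1/DKK1 and 4.63, 4.66 and 4.69 in DLD-1/Mock. The groups did not overlap, but the difference was 0.06 (SE 0.038) at a dim level.

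**Figure D2:**
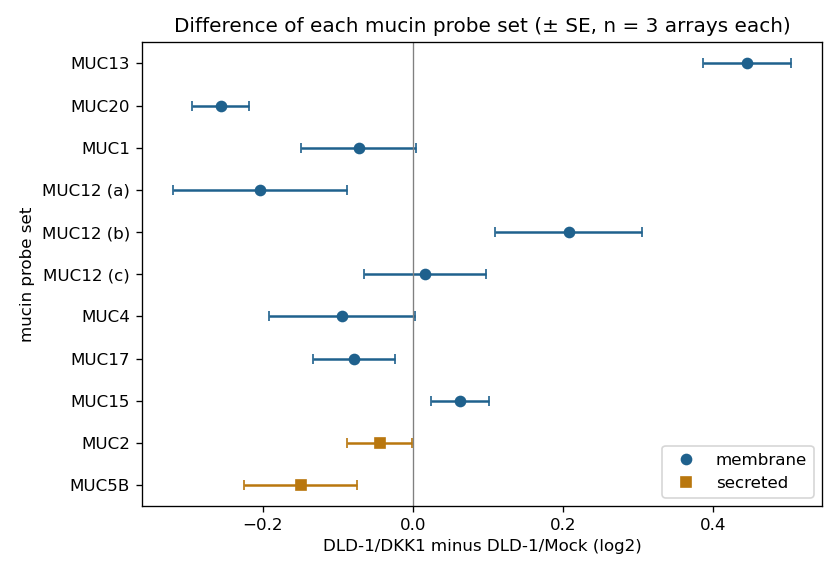
Difference of each mucin probe set, DLD-1/DKK1 minus DLD-1/Mock on the log2 scale, with bars of 1 standard error from the limma fit (n = 3 arrays each); circles are membrane and squares secreted mucins. MUC13 lies at 0.44 and MUC20 at -0.26, and the 3 MUC12 probe sets lie on both sides of 0.

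The secreted mucins differed little. MUC2 (probe set 7937560), the gel-forming mucin of goblet cells, read 6.45, 6.43 and 6.50 in DLD-1/DKK1 and 6.49, 6.55 and 6.48 in DLD-1/Mock. The ranges overlapped and the difference was -0.04 (SE 0.043), with a sign that turned when the arrays were scaled again. Without the second Mock array it was -0.02, and without the second DKK1 array -0.03. MUC5B (probe set 7937612), the gel-forming mucin of airways and glands, read 6.57, 6.72 and 6.59 in DLD-1/DKK1 and 6.76, 6.90 and 6.66 in DLD-1/Mock. The third Mock array lay within the DKK1 range, and the difference was -0.15 (SE 0.075), or -0.09 without the second Mock array.

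Over the 11 probe sets, 4 leaned higher and 7 lower in DLD-1/DKK1. Of all 18404 named genes, read by 1 probe set each, 8539 leaned higher and 9865 lower. With 1 probe set per gene, the median difference was -0.08 over the 7 membrane mucins and -0.10 over the 2 secreted mucins, beside -0.006 over all probe sets. Without the second Mock array the medians were -0.03 and -0.05, and under 3 other scalings they lay between -0.04 and -0.03 for membrane and between -0.05 and -0.04 for secreted mucins. The membrane mucins thus spanned 0.44 to -0.26 and the secreted ones -0.04 to -0.15, and no test was made between the classes. The median of all values was lower on every DKK1 array than on any Mock array, as given with the processing. Whether this has a part in the small lower leans of the mucins was not tested. None of the 11 had a limma adjusted p under 0.05, which 28 of all probe sets (0.0866%) had. At an unadjusted p under 0.05 there were 2 (MUC13 higher, MUC20 lower), beside 9.23% of all probe sets, 4.02% higher and 5.21% lower. Groups were apart in 3 of 11 (MUC13 and MUC15 higher, MUC20 lower), beside 16.5% of all probe sets. Since the mucins were chosen with this contrast known, these counts are descriptions only. The call for MUC13 depended on the processing: it passed when dim probe sets, or those without a symbol, were left out, and under 2 other variance models, as set out with the processing alternatives.

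How far each mucin signal stood above the dim end of the array was read against 350 olfactory receptor probe sets, genes mostly silent outside the nose. These had a median of 4.81 and a 95th percentile of 6.05 over the 6 arrays, with 1 (OR2H2) as high as 8.82. MUC13 and MUC20 lay above all 350. MUC1, MUC2, MUC5B and the MUC12 (a) and (b) probe sets lay above the 95th percentile, MUC4, MUC17 and MUC12 (c) below it, and MUC15 was near the middle of the receptors, at their 42.6th percentile. Of the fibroblast markers, DCN and LUM were dim. COL1A1 (7.39 in DLD-1/DKK1, 7.52 in DLD-1/Mock) and COL3A1 (6.38 and 6.53) also passed the 95th percentile. Passing it therefore does not by itself show that a mucin was expressed. Probe sets bind with different strength, so these positions do not rank the mucins by transcript number. In bulk RNA, fewer expressing cells and less RNA per cell cannot be told apart.

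The named genes most like MUC13 over the 6 arrays, by root mean square difference of values centred on each gene's mean, were NECTIN3, HEPH and CST2, of 19157 probe sets compared. NECTIN3, a cell adhesion molecule, had a root mean square difference of 0.026 from MUC13 and a difference between groups of 0.45. HEPH, a ferroxidase of enterocytes, had 0.027 and 0.43. CST2, a salivary cysteine protease inhibitor whose cystatin relatives are close in sequence, had 0.033 and 0.42. In all of them, as in MUC13, the second Mock array was the lowest of the 6. These genes were picked for likeness to MUC13 on these same arrays. Their differences between groups and their low second Mock array therefore follow from the choice.

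**Figure D3:**
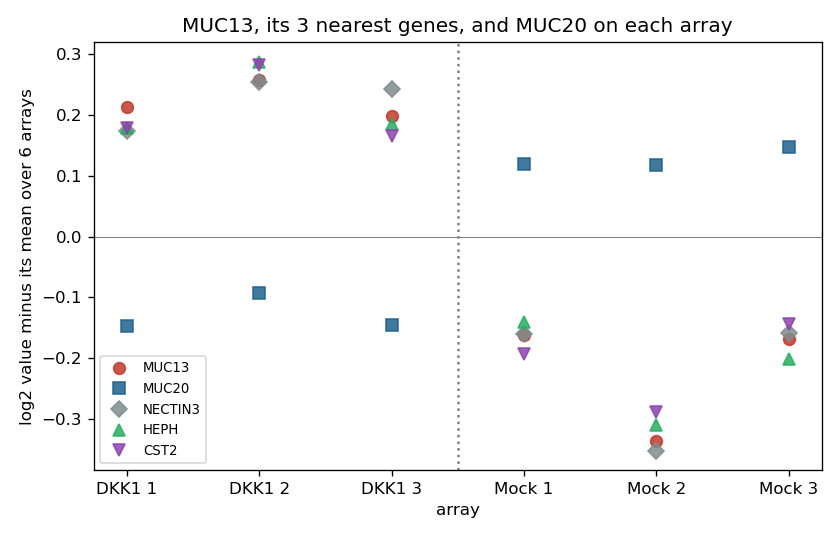
Log2 values of MUC13, of the 3 genes nearest to it and of MUC20 on each array, each minus its own mean over the 6 arrays, DLD-1/DKK1 arrays left of the dotted line. MUC13, NECTIN3, HEPH and CST2 lie above 0 on the DKK1 arrays and below it on the Mock arrays, lowest on the second Mock array, and MUC20 lies on the other side of 0. NECTIN3, HEPH and CST2 were picked for this likeness.

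Other genes of mucin biology were taken as 5 lists of 94 genes, 85 of them measured. None passed the adjusted threshold, which 0.136% of all 18404 named genes did, with 1 probe set per gene. At an unadjusted p under 0.05, 8 measured higher in DLD-1/DKK1 and 14 lower, with a median difference over the 85 of -0.03. The same level was reached by 10.1% of all named genes, 4.67% higher and 5.45% lower, and the counts of each list below stand beside these shares as descriptions. Of 11 other mucins and mucin-like genes measured, 3 were lower and 0 higher at that unadjusted level, beside 10.1% of all named genes, and the median was -0.11. MUC21, a membrane mucin that lessens cell adhesion, read 6.92, 6.86 and 6.86 in DLD-1/DKK1 and 7.22, 7.29 and 7.13 in DLD-1/Mock (difference -0.33, SE 0.052, limma adjusted p = 0.14). MUC6, a gel-forming mucin of stomach glands, had a difference of -0.23 (SE 0.07, limma adjusted p = 0.469). Under the 3 other scalings MUC6 lay between -0.182 and -0.175 and lost the unadjusted level (limma p 0.057 to 0.065). In MUC21 and MUC6, all DKK1 arrays were below all Mock arrays. The genes named from each list, here and below, were those with the lowest unadjusted p on these same arrays. That their groups lay apart therefore follows largely from the choice.

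Among 16 genes whose products are secreted with mucins or help goblet cells make them, 5 were lower and 2 higher at the unadjusted level, again beside 10.1% (median -0.04). ERN2 encodes IRE1β, a sensor of the unfolded protein response that goblet cells use while folding mucin. It read 9.15, 9.15 and 9.15 in DLD-1/DKK1 and 9.43, 9.47 and 9.48 in DLD-1/Mock (difference -0.31, SE 0.037, limma adjusted p = 0.0696). AGR2, a disulphide isomerase that mouse intestine needs to make MUC2, read 11.76, 11.77 and 11.71 in DLD-1/DKK1 and 11.60, 11.44 and 11.61 in DLD-1/Mock (difference 0.19, SE 0.057, limma adjusted p = 0.465). Both genes had groups that did not overlap, ERN2 below and AGR2 above, which follows largely from their choice by lowest p.

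Of 29 enzymes and chaperones that build mucin-type O-glycans, unadjusted p was under 0.05 for 3 higher and 3 lower ones, beside 10.1% of all named genes, and the median was 0.006. ST3GAL2, which adds sialic acid to core O-glycans and glycolipids, read 9.47, 9.56 and 9.45 in DLD-1/DKK1 and 9.05, 9.09 and 9.16 in DLD-1/Mock (difference 0.40, SE 0.051, limma adjusted p = 0.0808). GALNT17, of the family that adds the first sugar of mucin-type glycans, had a difference of -0.26 (SE 0.055, limma adjusted p = 0.296). For ST3GAL2 every DKK1 array was higher and for GALNT17 every one was lower than the Mock arrays. This too follows largely from their choice by lowest p.

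Of 14 transcription factors tied to mucin or goblet cell genes, 1 was higher and 1 lower by the same measure, a share near the 10.1% of all named genes (median -0.06). HNF4G, an intestinal nuclear receptor, read 7.23, 7.21 and 7.09 in DLD-1/DKK1 and 6.98, 6.88 and 6.86 in DLD-1/Mock (difference 0.27, SE 0.056, limma adjusted p = 0.289). SPDEF, which drives goblet cell maturation in mice, had a difference of -0.14 (SE 0.043, limma adjusted p = 0.462). Under the other scalings SPDEF lay between -0.097 and -0.092 and lost the unadjusted level (limma p 0.0505 to 0.079). Of 15 binding partners and sheddases of membrane mucins, 2 were higher and 2 lower by it, beside the same 10.1% (median 0.01). MMP14, a membrane protease that can shed MUC1, had a difference of -0.22 (SE 0.052, limma adjusted p = 0.394). JUP, or γ-catenin, which binds the MUC1 tail, had a difference of -0.16 (SE 0.044, limma adjusted p = 0.432). Both lay lower on every DKK1 array than on any Mock array.

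**Figure D4:**
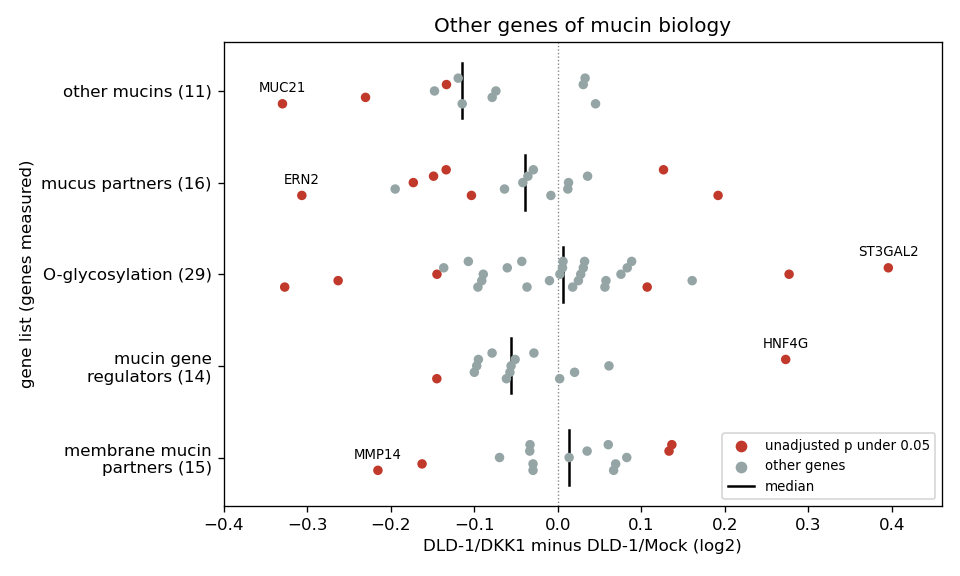
Differences of the 85 measured genes of the other lists, DLD-1/DKK1 minus DLD-1/Mock on the log2 scale, 1 point per gene, in red where the unadjusted p was under 0.05, with black lines at the list medians. The list medians lie between -0.11 and 0.01, and no gene passed the adjusted threshold.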

How the data were processed

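RNA from 3 DLD-1/DKK1 and 3 DLD-1/Mock dishes was run on Human Gene 1.0 ST arrays (Affymetrix). The deposited values are log2 expression per probe set, which the authors made from the scans by the robust multichip average method in the affy package; its versions are not given in the sources used here. This method equalises arrays, so a shift of all genes would not be seen. In the deposited values the array medians still were 6.79, 6.76 and 6.81 in DLD-1/DKK1 and 6.82, 6.86 and 6.82 in DLD-1/Mock. Probe sets were named from the platform annotation: 19158 had 1 symbol, 1388 several and 11775 none. Where a gene had several, the one with the highest mean stood for it in gene counts and medians. Groups were compared with limma 3.58.1 in R 4.3.3 (lmFit and eBayes, two-sided, Benjamini-Hochberg over all 32321 probe sets, threshold 0.05), without filter or covariate. The fit was tested on simulated data. The number of arrays limits the precision.

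The mucins and other lists were chosen with earlier results of these data known. Named were all mucin probe sets, DKK1, the 2 genes per list with the lowest unadjusted p under 0.05 and the 3 genes nearest to MUC13. MET, named after its values were seen, and single cell type markers come besides these. Figures were drawn with matplotlib 3.10.9.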

Additional observations from a re-analysis of the deposited data

How the results depend on the processing

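The 6 arrays set the limit: 4 residual degrees of freedom, and exact tests that cannot go below 0.1. MUC13 stayed between 0.39 and 0.50 and MUC20 between -0.28 and -0.20 over scalings and left-out arrays. The sign of MUC2 turned under quantile scaling (0.0061), median centring (0.0078) and cyclic loess (0.0093), and that of MUC12 (c) without DKK1 replicate 2 (-0.067) or Mock replicate 2 (-0.0044). Median centring moved the median of all probe sets from -0.006 to 0.046.

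All probe sets past the threshold numbered 28 (12 higher, 16 lower). They numbered 17 with median centring (10 higher, 7 lower), 66 with brighter probe sets only, 98 with annotated ones only, 53 with trended robust variance, 59 with array weights, 14 with a 1.5-fold minimum and 1 without moderation, and 2 to 6 without single arrays. Fewer probe sets were tested in the filtered fits. Mucin probe sets past the threshold numbered 0, but 1 with brighter probe sets (MUC13), 2 with annotated ones (MUC13 and MUC20), 1 with trended robust variance and 1 with array weights (MUC13 both times). They were 0 in every fit without a single array. Other pathway genes numbered 0, but 2 with brighter probe sets (ST3GAL2, ERN2), 3 with annotated ones (those and MUC21), 2 with trended robust variance (ST3GAL2, ERN2) and 1 with array weights (ERN2), again 0 without any 1 array. The DKK1 difference of 7.05 missed the threshold only without moderation (adjusted p = 0.0646, range over the alternatives 2.68e-06 to 0.0646), and lay between 6.91 and 7.27 without single arrays. The median of membrane mucins lay between -0.12 and -0.03 and that of secreted mucins between -0.13 and -0.05 without single arrays. With quantile scaling, median centring and cyclic loess the membrane median was -0.044, -0.026 and -0.040 and the secreted median -0.048, -0.045 and -0.045. Whether the replicate numbers mark pairs of dishes is not given. Same-numbered arrays had correlations of deviations of 0.10, 0.0082 and -0.14, and differently numbered ones lay between -0.23 and 0.23. A fit with the replicate block gave 1 probe set past the threshold and 0 mucins. That fit leaves fewer residual degrees of freedom, so its count cannot show whether dishes were paired. The cause of these differences between fits was not tested.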
